A study of Mus musculus with 12 samples.

Results

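Expression of 10 glutathione transferase genes was followed in mouse liver before TCPOBOP and 1 and 2 days after it, with and without YAP in hepatocytes. They are the mu class genes Gstm1, Gstm2, Gstm3, Gstm4 and Gstm6, the alpha class genes Gsta3 and Gsta4, and the theta class genes Gstt1, Gstt2 and Gstt3. The values are those of all probe sets on the array that the platform annotation gives to 1 of these symbols alone: 15 of the 45101 probe sets, for 10 of the 18193 genes with a probe set of their own. Gstm1 has 4 such probe sets, Gstm3 and Gsta3 have 2 each, and the other genes have 1. All 15 passed the filter on low signals, so no member was lost. RNA came from whole livers of female mice aged 8 to 12 weeks that carried 2 floxed Yap1 alleles. Knockout mice (KO) had received AAV8 that expresses Cre from the TBG promoter, which is active in hepatocytes, and their controls (WT) the matching virus with GFP, so both genotypes were floxed and virus-treated. TCPOBOP, a synthetic agonist of the nuclear receptor CAR that makes mouse hepatocytes divide, was given once by gavage at 3 mg/kg in corn oil 10 days after the virus, and day 0 mice received neither it nor the oil. Day 2 has 3 arrays per genotype and day 0 has 2, while day 1 is a single array per genotype, hybridised with a pool of RNA. No group received the oil alone, so the effects of TCPOBOP and of gavage and time cannot be told apart. The labels number the arrays of a group without saying that each is a separate animal, so the p-values measure only the spread between these arrays.

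Glutathione transferases are enzymes of phase II drug metabolism that join the tripeptide glutathione to electrophilic compounds, which makes them water-soluble and less reactive. The conjugates leave the hepatocyte through ABC transporters and are trimmed to mercapturates in kidney and bile duct. In rodent liver the cytosolic alpha and mu class enzymes are abundant proteins, and many of their genes are known to be induced by ligands of CAR and PXR and by electrophiles acting through NRF2. YAP, which the Hippo kinases restrain, switches genes on in partnership with DNA-binding TEAD proteins.

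The signals are MAS5 intensities scaled to 1 target on every array, and the array medians lay between 231.6 and 277. The signal range was not the same in all groups: the highest signal on an array was 48217 to 67457 on KO day 2 arrays, 103216 to 116918 on WT day 2 arrays and 71165 to 102372 on the day 0 arrays of both genotypes. Several glutathione transferase signals lie near the top of that range, so each comparison is given as deposited and after quantile normalization, which gives all 12 arrays the same distribution. Differences are on the log2(signal + 16) scale, from 1 limma fit to 14102 genes with Benjamini-Hochberg adjustment over all of them, and a gene is called at an adjusted p under 0.05. Yap1 itself was lower in KO than in WT livers at day 2 (log2 difference -0.92 ± 0.17, SE, adjusted p = 0.00844), and its day 0 difference of -1.02 ± 0.20 was not called (adjusted p = 0.0914). The bulk RNA also holds the Yap1 of cells that TBG does not drive.

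The genes lie in clusters, and near-identical neighbours can share array probes. By the RefSeq annotation of GRCm38.p6, Gstm6, Gstm3, Gstm2, Gstm1 and Gstm4 follow each other on chromosome 3 next to Gstm7. On chromosome 10, Gstt3 and Gstt1 are neighbours, and Gstt2 is separated from Gstt1 by Gstt4. Gsta4 lies beside Gsta1 on chromosome 9 and Gsta3 lies on chromosome 1, away from both. The RefSeq promoter table held windows of 250 bases before to 50 bases after a transcript start for 8 of the 10 genes, 13 windows in all (Gsta4 and Gstt2 have none there). Of these, 4 are shown: those of Gstm3 and Gstm2, the genes with the largest changes below, that of Gstm1, whose KO minus WT difference at day 2 took both signs among its probe sets, and that of Gsta3, which holds a match, all 5′ to 3′ on the gene's strand. Capitals mark matches, on either strand, to the core of the antioxidant response element (TGACNNNGC, known as the site of NRF2), to the nuclear receptor half-site (AGGTCA, used by CAR with RXR) or to the TEAD motif (GGAATG).
Gstm3 chr3:107969125-107969424, minus strand: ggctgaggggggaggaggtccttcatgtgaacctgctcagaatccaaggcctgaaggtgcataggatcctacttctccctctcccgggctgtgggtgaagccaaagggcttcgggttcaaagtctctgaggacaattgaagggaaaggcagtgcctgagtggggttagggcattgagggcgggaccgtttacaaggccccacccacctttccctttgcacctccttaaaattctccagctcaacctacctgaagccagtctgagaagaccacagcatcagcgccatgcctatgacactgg
Gstm2 chr3:107986371-107986670, minus strand: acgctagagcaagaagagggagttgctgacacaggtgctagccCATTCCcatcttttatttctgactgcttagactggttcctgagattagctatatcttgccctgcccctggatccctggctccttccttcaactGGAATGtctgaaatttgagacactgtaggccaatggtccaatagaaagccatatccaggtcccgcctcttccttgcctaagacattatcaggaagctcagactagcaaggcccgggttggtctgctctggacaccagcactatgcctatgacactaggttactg
Gstm1 chr3:108017769-108018068, minus strand: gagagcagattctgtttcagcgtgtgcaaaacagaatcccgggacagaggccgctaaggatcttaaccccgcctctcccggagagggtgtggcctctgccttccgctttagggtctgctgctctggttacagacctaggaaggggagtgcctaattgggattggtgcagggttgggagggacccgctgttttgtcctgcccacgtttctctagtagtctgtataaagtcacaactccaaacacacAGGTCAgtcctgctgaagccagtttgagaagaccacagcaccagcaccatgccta
Gsta3 chr1:21240335-21240634, plus strand: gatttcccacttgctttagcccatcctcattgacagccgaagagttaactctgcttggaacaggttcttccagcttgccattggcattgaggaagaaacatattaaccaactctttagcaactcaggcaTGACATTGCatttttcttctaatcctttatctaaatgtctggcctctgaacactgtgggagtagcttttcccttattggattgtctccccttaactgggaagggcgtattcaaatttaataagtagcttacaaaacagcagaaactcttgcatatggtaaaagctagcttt
Among the 13 windows, the antioxidant response core was found in 1, that of Gsta3 (TGACATTGC), against 12.4% of all 32851 promoter windows. The receptor half-site was found in 1, the Gstm1 window shown, against 16.3% of all windows. The TEAD motif was found in 2, with 2 matches for Gstm2 and 1 for Gstm6, against 14.7% of all windows. The Gstm3 window holds none of the 3 motifs. A match is a run of letters and not a measured binding site, and regulatory elements outside these windows were not searched.

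**Figure D1:**
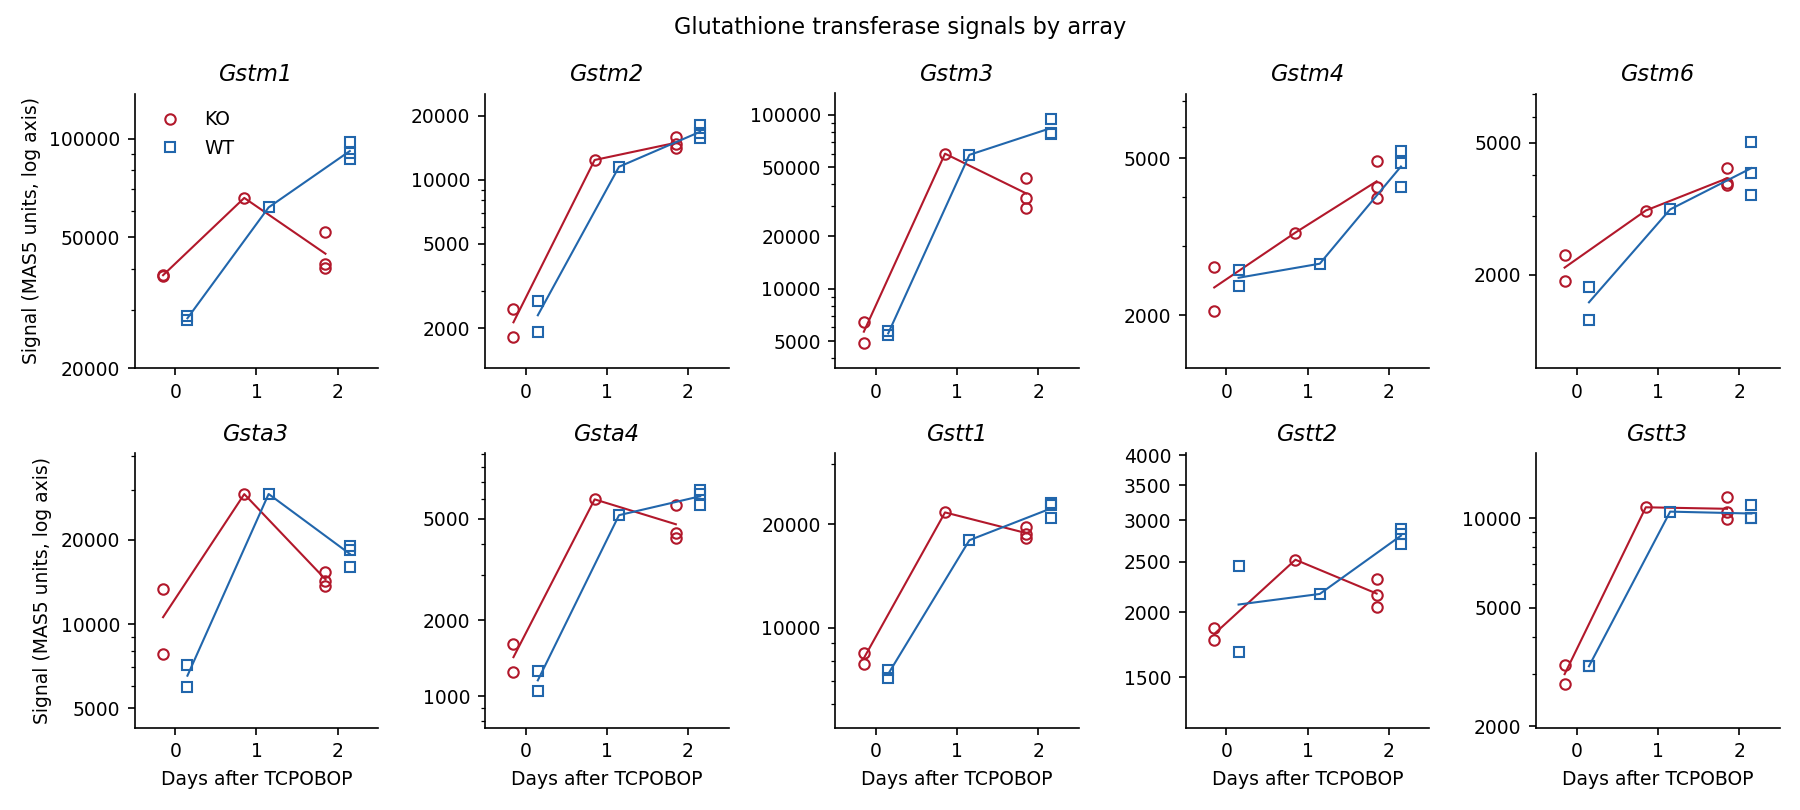
Deposited signal (MAS5 units, log axis) of the 10 glutathione transferase genes against days after TCPOBOP, each gene read by its brightest probe set. Red circles are KO arrays and blue squares WT arrays, with lines through the group means. All day 2 arrays lie above all day 0 arrays of the same genotype in every panel, and KO and WT day 2 arrays separate widely for Gstm1 and Gstm3.

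Most of the 10 genes were higher 2 days after TCPOBOP in both genotypes. In KO livers 7 of the 10 rose and none fell, and 4.2% of all genes tested rose and 4.49% fell. In WT livers 9 rose and none fell, where 7.26% of all genes rose and 5.38% fell. The median log2 difference of the 10 genes was 1.05 in KO livers, against 0.05 for all genes tested, and 1.64 in WT livers, against -0.11 for all genes. On every day 2 array every one of the 10 genes read higher than on every day 0 array of its genotype, which 22.6% of all genes did in KO livers and 19.2% in WT livers. After quantile normalization 8 rose in KO livers (4.74% of all genes) and 9 in WT livers (6.75%), with medians of 1.24 in KO and 1.30 in WT livers. In whole-liver RNA, a change in the share of hepatocytes and a change in RNA per hepatocyte cannot be told apart.

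**Figure D2:**
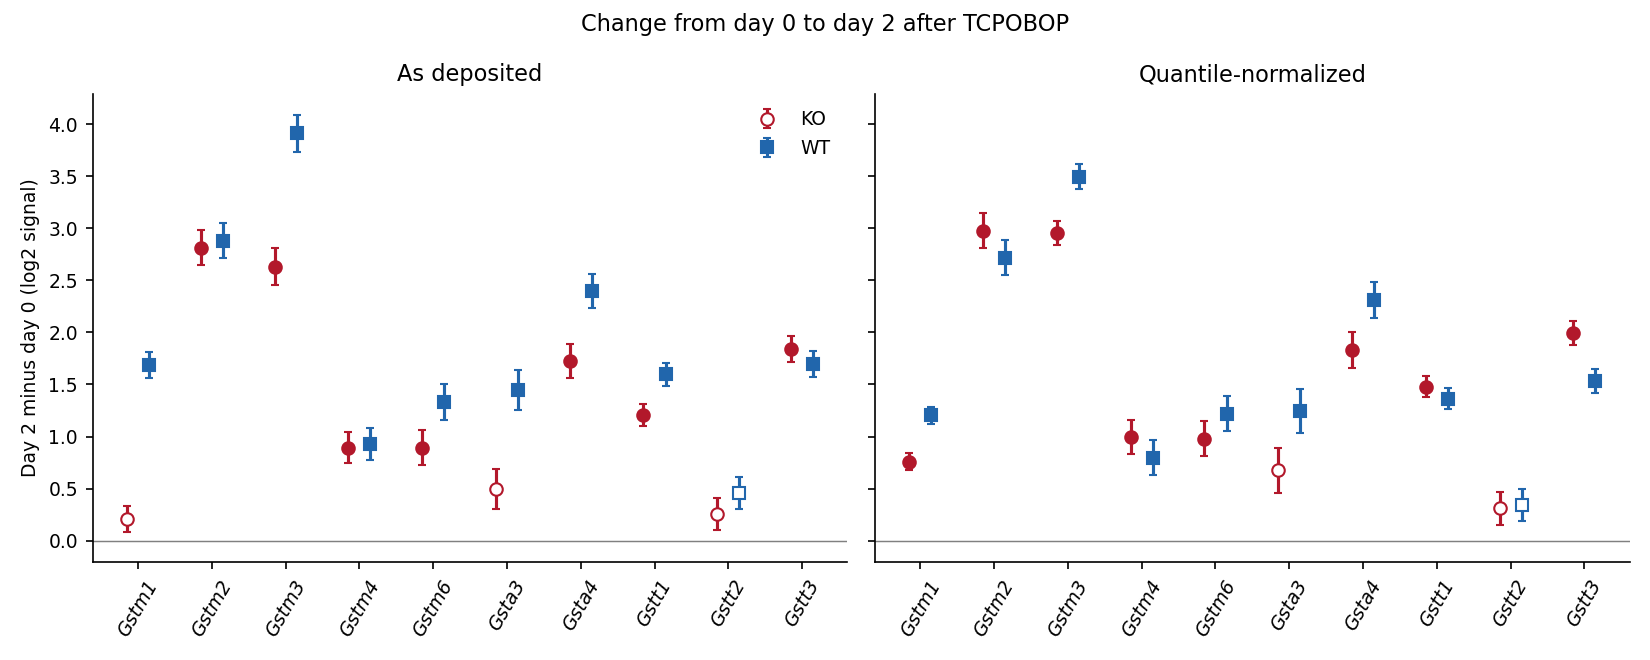
Log2 difference between day 2 and day 0 (vertical axis, day 2 minus day 0, with SE) for each gene as deposited and after quantile normalization. Red circles are KO livers and blue squares WT livers, and filled symbols were called at an adjusted p under 0.05. Gstm3 and Gstm2 stand highest in both genotypes, and Gstt2 is the 1 gene with open symbols throughout.

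Among the mu class genes, Gstm3 and Gstm2 changed most. Gstm3 is described first. Its brightest probe set, 1427474_s_at, which represents the gene in the fit, read 29239.5, 33187 and 43669 on the KO day 2 arrays and 6446 and 4887 on the KO day 0 arrays. In WT livers it read 78755, 78048 and 94898 at day 2 and 5684 and 5395 at day 0. The day 0 ranges of the genotypes overlap, whereas every KO day 2 array lies below every WT day 2 array. The rise was 6.20-fold in KO livers (log2 difference 2.63 ± 0.18, adjusted p = 5.98e-06) and 15.05-fold in WT livers (3.91 ± 0.18, adjusted p = 1.55e-07). On the quantile scale the log2 differences were 2.95 in KO and 3.49 in WT livers, both called. Of 14102 genes ranked by their rise, Gstm3 stood at 34 in KO livers and at 19 in WT livers.

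The other Gstm3 probe set, 1427473_at, had signals of only 687 and 403 on KO day 0 arrays and 578.5 and 548 on WT day 0 arrays. At day 2 it read 23413, 26373 and 30802 in KO livers and 49591, 53977 and 53645 in WT livers. In the fit of all 23038 kept probe sets this was a 49.2-fold rise in KO livers (log2 difference 5.62 ± 0.19, adjusted p = 1.02e-08) and a 90.5-fold rise in WT livers (6.50 ± 0.19, adjusted p = 2.08e-09). Both probe sets of Gstm3 thus rose in both genotypes, with unequal folds. In the manufacturer's naming, the ending _s_at of the first marks probes shared by several transcripts and _x_at marks probes that may bind others.

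Gstm2, a close relative of Gstm3 encoded beside it, rose by about the same fold in both genotypes. It read 14730.4, 14159.8 and 15938 on KO day 2 arrays and 1815 and 2453 on KO day 0 arrays. The WT signals were 16540.5, 18214 and 15785.5 at day 2 and 2684 and 1921.5 at day 0. The ranges of the genotypes overlap at both days, and the days do not. The rise was 7.03-fold in KO livers (log2 difference 2.81 ± 0.17, adjusted p = 2.14e-06) and 7.36-fold in WT livers (2.88 ± 0.17, adjusted p = 1.25e-06), with quantile values of 2.98 in KO and 2.72 in WT livers. The KO change minus the WT change was -0.07, with a 95% confidence interval from -0.58 to 0.45.

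Gstm4 and Gstm6, mu class genes at the 2 ends of the row, showed smaller rises. Gstm4 read 3957, 4225 and 4927 on KO day 2 arrays and 2054 and 2649.6 on KO day 0 arrays. Its WT signals were 4222, 5213.5 and 4862 at day 2 and 2371 and 2607 at day 0. At each day the KO and WT ranges overlap. Gstm4 rose 1.86-fold in KO livers (log2 difference 0.89 ± 0.15, adjusted p = 0.00353) and 1.90-fold in WT livers (0.93 ± 0.15, adjusted p = 0.00198). Gstm6 read 3729, 3784 and 4196 on KO day 2 arrays and 1906 and 2291 on KO day 0 arrays. Its WT signals were 3484, 4060.1 and 5032 at day 2 and 1838 and 1459 at day 0. The KO day 2 range lies inside that of WT. Gstm6 rose 1.86-fold in KO livers (log2 difference 0.89 ± 0.17, adjusted p = 0.00632) and 2.52-fold in WT livers (1.33 ± 0.17, adjusted p = 3.42e-04). The 4 rises were also called after quantile normalization, at 0.99 in KO and 0.80 in WT livers for Gstm4 and at 0.98 in KO and 1.22 in WT livers for Gstm6. The quantile call of Gstm4 in WT livers is lost without WT day 0 replicate 1 (0.71, adjusted p = 0.0839).

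Gstm1, which encodes an abundant mu class enzyme of mouse liver, was called in KO livers on one scale and not on the other. Its representing probe set, 1416416_x_at, read 40250.5, 41606 and 51976 on KO day 2 arrays and 38251 and 38500.5 on KO day 0 arrays. On WT arrays the signals were 86349, 90561 and 97930.5 at day 2 and 28760.1 and 27987 at day 0. The day 2 arrays of the genotypes are far apart, and the KO day 0 arrays lie above those of WT. As deposited it rose 3.22-fold in WT livers (log2 difference 1.69 ± 0.13, adjusted p = 7.47e-06), whereas the KO value of 0.21 ± 0.13 was not called (adjusted p = 0.369). After quantile normalization Gstm1 rose in both, by 0.76 ± 0.08 in KO livers (adjusted p = 1.49e-04) and by 1.20 ± 0.08 in WT livers (adjusted p = 5.31e-06). The quantile-normalized signals were 59199.8, 59199.8 and 64769.9 on KO day 2 arrays and 33458 and 38813.5 on KO day 0 arrays. For WT they were 70725, 73273 and 70123 at day 2 and 31159 and 30738 at day 0. At such high signals a normalized value is set by the rank of the probe set on its array, and 2 KO day 2 arrays gave it the same rank. Its mean log2 signal of 15.64 over the 12 arrays lies in the range over 14, where the median of 152 genes was -0.42 in KO livers and 0.16 in WT livers as deposited.

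**Figure D3:**
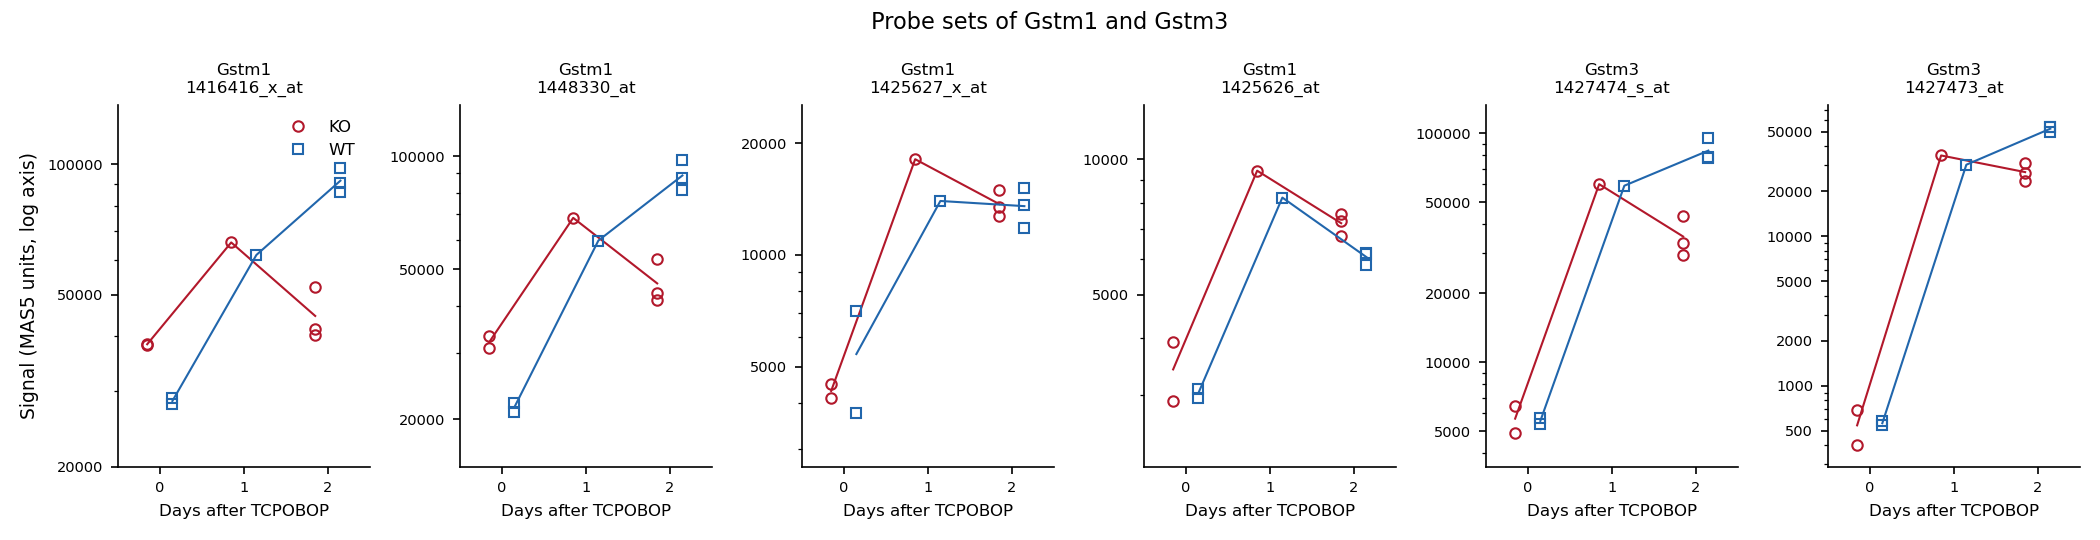
Deposited signal (MAS5 units, log axis) of the 4 Gstm1 and 2 Gstm3 probe sets against days after TCPOBOP, with red circles for KO arrays and blue squares for WT arrays and lines through group means. KO day 2 arrays lie well below WT day 2 arrays for 2 Gstm1 and both Gstm3 probe sets, overlap WT for Gstm1 1425627_x_at and lie above WT for Gstm1 1425626_at.

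The 4 Gstm1 probe sets fall into 2 pairs. Probe set 1448330_at followed 1416416_x_at, with 43206, 41348 and 53123 on KO day 2 arrays and 30858 and 33211 on KO day 0 arrays, and 81079, 87624.5 and 97674.5 on WT day 2 arrays and 20921 and 22113 on WT day 0 arrays. Its rise was called in both genotypes, at 0.51 ± 0.13 in KO livers (log2 difference, adjusted p = 0.0354) and 2.04 ± 0.13 in WT livers (adjusted p = 2.93e-06). The other pair is dimmer, and its fitted rises were not smaller in KO than in WT livers. Probe set 1425626_at read 6761, 7295 and 7563 on KO day 2 arrays and 2902.5 and 3922 on KO day 0 arrays. Its WT signals were 5815, 6171 and 6197 at day 2 and 2955 and 3088 at day 0. Every KO day 2 array is above every WT day 2 array for this probe set, the opposite of the first pair. It rose by 1.09 ± 0.14 in KO livers (adjusted p = 5.52e-04) and by 1.00 ± 0.14 in WT livers (adjusted p = 6.02e-04). Probe set 1425627_x_at rose by 1.66 ± 0.21 in KO livers (adjusted p = 6.46e-04) and by 1.38 ± 0.21 in WT livers (adjusted p = 0.00143). Across the 15 member probe sets, 12 rose in KO livers and 14 in WT livers, where 7.27% of all 23038 probe sets in KO livers and 11.3% in WT livers were called in either direction.

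Of the alpha class genes, Gsta4 rose in both genotypes and Gsta3 was called in WT livers. Gsta4, whose enzyme conjugates the lipid peroxidation product 4-hydroxynonenal, read 4395, 4216.5 and 5685.5 on KO day 2 arrays and 1243 and 1613.5 on KO day 0 arrays. In WT livers Gsta4 read 5675, 6490.5 and 6259 at day 2 and 1053.5 and 1261 at day 0. The highest KO day 2 array only just exceeds the lowest of WT. Gsta4 rose 3.31-fold in KO livers (log2 difference 1.73 ± 0.17, adjusted p = 6.50e-05) and 5.26-fold in WT livers (2.40 ± 0.17, adjusted p = 5.05e-06), with quantile values of 1.83 in KO and 2.31 in WT livers. Gsta3, whose mouse enzyme is known for detoxifying the epoxide of aflatoxin B1, read 13697, 14260.1 and 15385 on KO day 2 arrays and 7792 and 13374.5 on KO day 0 arrays. The WT signals of Gsta3 were 19043, 15953 and 18430.0 at day 2 and 7117 and 5964 at day 0. The 2 KO day 0 arrays are far apart, and the higher of them comes close to the KO day 2 arrays. Gsta3 rose 2.72-fold in WT livers (1.44 ± 0.19, adjusted p = 4.75e-04). In KO livers its difference of 0.50 ± 0.19 was not called (adjusted p = 0.146), nor was the quantile value of 0.68 (adjusted p = 0.0764). Without KO day 0 replicate 2 it was 0.89 as deposited (adjusted p = 0.00435). The other Gsta3 probe set, 1423437_at, had KO day 0 arrays that stood close together, and rose by 0.68 ± 0.15 in KO livers (adjusted p = 0.0193) and by 0.78 ± 0.15 in WT livers (adjusted p = 0.00618).

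Of the theta class genes, Gstt1 and Gstt3 rose and Gstt2 was not called in either genotype. Gstt1, whose enzyme acts on small halogenated compounds such as dichloromethane, read 18735, 18238 and 19602 on KO day 2 arrays and 7863 and 8439 on KO day 0 arrays. The WT signals of Gstt1 were 23035, 20936 and 22709.8 at day 2 and 7153 and 7512 at day 0. KO arrays lie below WT arrays at day 2 and above them at day 0, by small margins. Gstt1 rose 2.31-fold in KO livers (log2 difference 1.21 ± 0.11, adjusted p = 4.29e-05) and 3.03-fold in WT livers (1.60 ± 0.11, adjusted p = 4.39e-06). Gstt3, its neighbour, read 9973, 10490.5 and 11829 on KO day 2 arrays and 2770.3 and 3223 on KO day 0 arrays. In WT livers Gstt3 read 9991, 10036 and 11105.5 at day 2 and 3185 and 3188 at day 0. The genotypes overlap at both days. Gstt3 rose 3.58-fold in KO livers (1.84 ± 0.12, adjusted p = 5.98e-06) and 3.24-fold in WT livers (1.70 ± 0.12, adjusted p = 6.94e-06). Gstt2 read 2153, 2044.5 and 2315 on KO day 2 arrays and 1769 and 1863 on KO day 0 arrays. Its WT signals were 2881.5, 2825 and 2699 at day 2 and 2456 and 1680.4 at day 0, and the 2 WT day 0 arrays differ more than the days do. The Gstt2 difference was 0.25 ± 0.15 in KO livers (adjusted p = 0.365) and 0.46 ± 0.15 in WT livers (adjusted p = 0.0735). Without WT day 0 replicate 1 the WT value was 0.73 and called (adjusted p = 0.0175).

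At day 1 the 2 pools, 1 of each genotype, were already close to each other for all 10 genes. There is no replicate at day 1, so no test was made and the differences have no replicate check. Gstm3 read 59879.6 in the KO pool and 58951 in the WT pool, each 10.6-fold its own day 0 level. Gsta3 read 29119 in the KO pool and 29147 in the WT pool, its highest signals of the series. Gstm1 read 65958 in the KO pool and 61716 in the WT pool, and Gstm2 12399.8 in the KO pool and 11522 in the WT pool. The log2 difference between the pools, KO minus WT, ran from -0.01 for Gstm6 to 0.27 for Gstt1, with a median of 0.10. Against day 0, 6 of the 10 genes were at least 2-fold higher in the KO pool, as were 6.11% of all genes, and 7 in the WT pool, as were 6.35% of all genes. The median log2 difference of the 10 genes between day 1 and day 0 was 1.46 in KO and 1.51 in WT livers. Across the 10 genes the day 1 changes of the genotypes correlated at Pearson r = 0.946, a description over genes that share arrays and are not independent.

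Between day 1 and day 2, as deposited, the representing probe sets of Gstm1 and Gstm3 took opposite signs in the genotypes. So did those of Gsta4, Gstt1 and Gstt2, and so did Gstm1 1448330_at and Gstm3 1427473_at. The dimmer Gstm1 pair read lower at day 2 in both genotypes. From the KO pool to the KO day 2 mean, 1425626_at went from 9427 to 7206 and 1425627_x_at from 18095 to 13708. In WT livers they went from 8216 to 6061 and from 13971 to 13530. The day 1 values are single pools, so these differences have no test. From the KO pool to the KO day 2 mean, the log2 difference was -0.57 for Gstm1, -0.78 for Gstm3 and -1.01 for Gsta3, with a median of -0.21 over the 10 genes. The same difference in WT livers was 0.57 for Gstm1, 0.50 for Gstm3 and -0.71 for Gsta3, with a median of 0.38. Gsta4 gave -0.34 in KO and 0.24 in WT livers, Gstt1 -0.20 in KO and 0.30 in WT livers, and Gstt2 -0.22 in KO and 0.37 in WT livers. Gsta3 read lower at day 2 than at day 1 in both genotypes, and in KO livers it was the 1 gene at least 2-fold lower, as 3.82% of all genes were. After quantile normalization the KO values were 0.10 for Gstm1, -0.21 for Gstm3 and -0.68 for Gsta3, and the median was 0.14 in KO and 0.32 in WT livers. The direction for Gstm1 between day 1 and day 2 in KO livers therefore differs between the scales. As deposited, the mean Gstm1 signal increased in the order WT day 0, KO day 0, KO day 2, WT day 1 pool, KO day 1 pool and WT day 2, and neither step among the first 3 of these was called. On the quantile scale the KO day 2 mean stands above both pools, at 61056.5 ± 3216 (SD, n = 3) against 71373 ± 1672 (SD, n = 3) for WT day 2.

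The direct comparison of genotypes at day 2 asks whether livers without hepatocyte YAP held the same transferase levels after TCPOBOP. Gstm1 and Gstm3 were lower in KO livers as deposited, the other 8 genes were not called, and none was called higher. The 2 of 10 genes stand beside 5.23% of all genes that were lower. Gstm1 averaged 44611 ± 6414 in KO and 91613 ± 5862 in WT livers (SD, n = 3 each), a log2 difference of -1.05 ± 0.11 (adjusted p = 0.0011). Gstm3 averaged 35365 ± 7457 in KO and 83900.3 ± 9531 in WT livers (SD, n = 3 each), a log2 difference of -1.26 ± 0.16 (adjusted p = 0.00187). Both are among the brightest of these genes, and as deposited the median KO minus WT difference at day 2 was -0.41 for the 152 genes with a mean log2 signal over 14, -0.21 for 651 genes from 12 to 14 and 0.21 for 2021 genes under 8. After quantile normalization these medians were 0.06, 0.04 and 0.07.

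On the quantile scale Gstm3 stayed lower in KO livers, and no other gene was called (1 of 10 genes, beside 3.86% of all genes lower). Its quantile-normalized signals were 37347, 43695 and 50449 on KO arrays and 64123, 64769.9 and 67906 on WT arrays, which do not overlap. The difference was -0.59 ± 0.11 (adjusted p = 0.012), and Gstm3 was called lower under each of the 26 alternative settings tried, with values from -1.43 to -0.48. Gstm1 kept a quantile difference of -0.23 ± 0.07 that was not called (adjusted p = 0.0845). Its probe sets 1416416_x_at, 1448330_at, 1425627_x_at and 1425626_at gave -1.05, -0.96, 0.02 and 0.25 as deposited, the first 2 called lower. With both Gstm3 probe sets, 4 of the 15 were called at day 2, beside 7.86% of all probe sets in either direction. After quantile normalization the Gstm1 probe sets gave -0.23, -0.08, 0.34 and 0.51 in the same order, and the last, 1425626_at, was called higher in KO livers (adjusted p = 0.0445). The direction of the Gstm1 genotype difference is therefore not the same for all its probe sets. Both Gstm3 probe sets were lower in KO livers as deposited, 1427473_at by -0.97 ± 0.17 (adjusted p = 0.00809), while its quantile value of -0.49 was not called (adjusted p = 0.113).

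**Figure D4:**
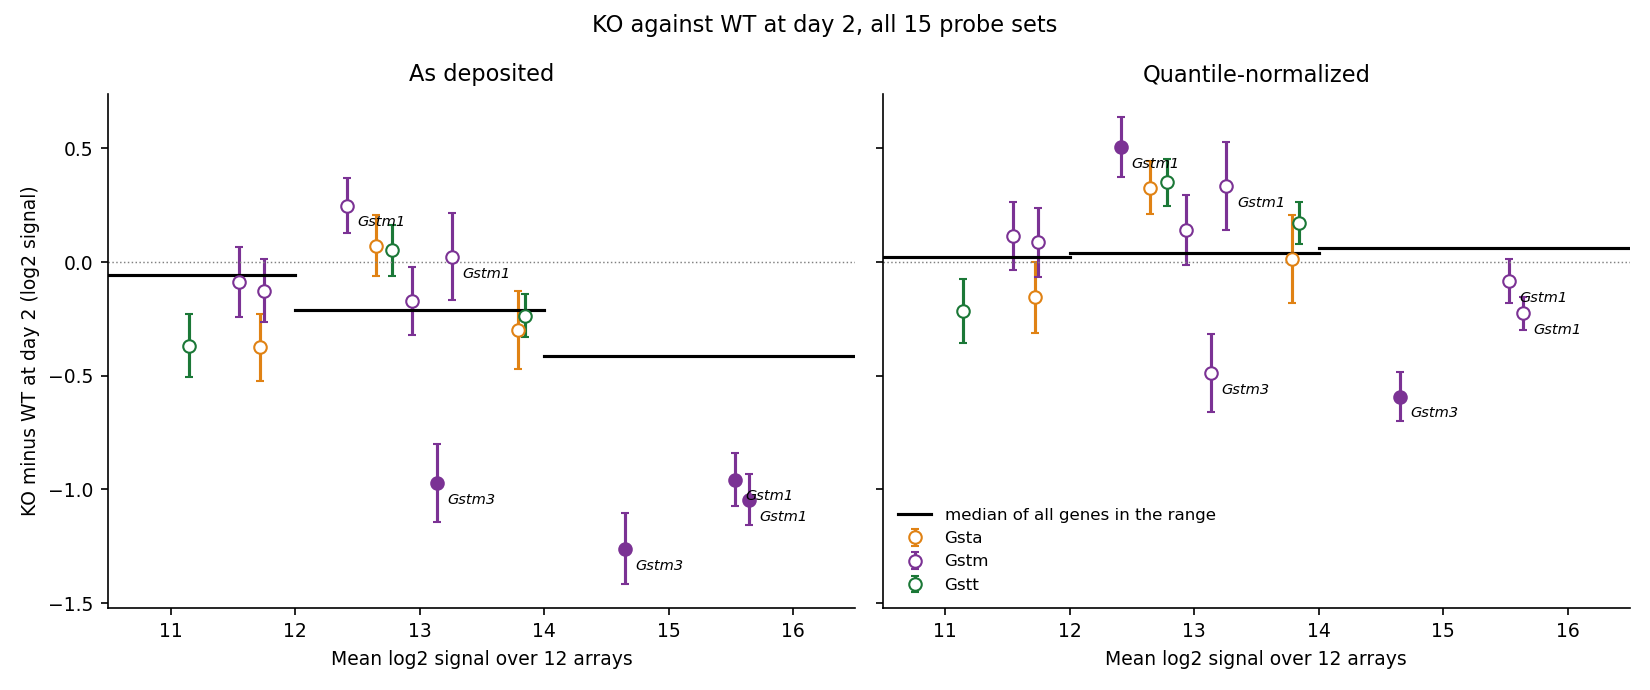
KO minus WT log2 difference at day 2 (vertical axis, with SE) of the 15 probe sets against their mean log2 signal over 12 arrays, as deposited and after quantile normalization. Orange, purple and green are the alpha, mu and theta classes, filled symbols were called at an adjusted p under 0.05, and black bars are the medians of all genes in that signal range, which run down to -0.41 as deposited. The 2 Gstm3 probe sets lie below the bars on both scales.

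For the other 8 genes the genotype difference at day 2 was not called on either scale, which does not show that the levels are the same. With each array centred on its median, 3 of them were called lower in KO livers, Gsta4 (-0.55, adjusted p = 0.0279), Gstt1 (-0.41, adjusted p = 0.0364) and Gstt2 (-0.54, adjusted p = 0.0429). The share of all genes called lower under this centring is not given here. Gstt2 was also called in a fit of only the arrays compared (-0.37, adjusted p = 0.0381). The deposited log2 differences ran from -0.38 for Gsta4 to 0.05 for Gstt3, and the quantile values from -0.21 for Gstt2 to 0.35 for Gstt3. Gstm2 had a quantile difference of 0.14 with a 95% interval from -0.20 to 0.47, and Gsta4 one of -0.15 with an interval from -0.49 to 0.19. Gstt3 came closest to a call on the quantile scale, with an interval from 0.13 to 0.57 (adjusted p = 0.0608). Every KO array was below every WT array for 5 of the 10 genes as deposited, as for 16.1% of all genes. On the quantile scale this held for 3 genes (15.7% of all), and for 2 genes every KO array was above every WT array (17.3% of all).

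As deposited, most hepatocyte markers were lower in KO than in WT livers at day 2, as Gstm1 and Gstm3 were. Between the days in KO livers most of these markers fell, while none of the 10 genes did. All 8 fixed markers (Alb, Apoa1, Ttr, Serpina1c, Fgb, Hpx, Tat and Cyp2e1) were measured, and their summed signal was 290981 to 372481 on KO day 2 arrays, 545204 to 624007 on WT day 2 arrays, 501409 to 596017 on KO day 0 arrays and 434969 to 437883 on WT day 0 arrays. Between the genotypes at day 2, 6 of the 8 were lower in KO livers as deposited, and on the quantile scale none was lower and 2 were higher. From day 0 to day 2 in KO livers, 7 of the 8 fell as deposited and 2 fell on the quantile scale. In WT livers 4 rose and 1 fell as deposited, and 4 fell on the quantile scale. Their part in the Gstm1 and Gstm3 differences was not tested. Markers of other cells also changed between the days, and their part in the rises of the 10 genes was not tested. The summed signal of 6 stellate cell markers was 7281 to 8287 on KO day 2 arrays and 9382 to 13586 on KO day 0 arrays, and 6621 to 7537 on WT day 2 arrays and 9117 to 9891 on WT day 0 arrays. That of 7 endothelial markers was 5977 to 7081 on KO day 2 arrays and 6982 to 9138 on KO day 0 arrays, and 4627.5 to 5563 on WT day 2 arrays and 6881 to 8209 on WT day 0 arrays. In KO livers 2 stellate markers (Reln and Dcn), 1 endothelial (Oit3), 1 Kupffer cell (Clec4f) and 1 erythroid marker (Alas2) fell as deposited, and 1 lymphocyte marker (Cd8a) rose. In WT livers 2 stellate (Lrat and Reln), 2 endothelial (Clec4g and Cdh5) and 1 lymphocyte marker (Ms4a1) fell and none rose. Beside the deposited marker counts, 4.2% of all genes rose and 4.49% fell in KO livers, and 7.26% rose and 5.38% fell in WT livers. At day 2, 5.23% of all genes were lower in KO than in WT livers as deposited. On the quantile scale 544 of all 14102 genes were lower and 496 higher in KO than in WT livers at day 2. Between day 0 and day 2 on that scale, 641 of the 14102 fell in KO livers and 838 in WT livers. Between the genotypes at day 2, 1 of 7 Kupffer cell markers was lower in KO than in WT livers and 1 of 7 endothelial markers higher as deposited, and none of 6 stellate, 6 lymphocyte, 3 neutrophil, 2 cholangiocyte and 2 erythroid markers was called by limma. At an unadjusted p under 0.05 these counts were 1 stellate, 2 lymphocyte, 1 neutrophil, 0 cholangiocyte and 2 erythroid markers. On the quantile scale Alas2 was called lower in KO than in WT livers at day 2 (-1.38, adjusted p = 0.0426), and no Kupffer cell marker was called by limma, with 1 at an unadjusted p under 0.05.

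Before TCPOBOP none of the 10 genes was called between the genotypes by limma, where 0.17% of all genes were called in either direction. At an unadjusted p under 0.05, 2 genes passed, Gsta3 and Gstm1, both higher in KO livers. The share of all genes at this unadjusted threshold is not given here, and the 0.17% is for adjusted calls. Gstm1 averaged 38376 ± 177 in KO and 28373 ± 547 in WT livers at day 0 (SD, n = 2 each), a log2 difference of 0.44 ± 0.14 (adjusted p = 0.393) and of 0.22 on the quantile scale. Its other probe sets 1448330_at, 1425626_at and 1425627_x_at differed by 0.57, 0.16 and -0.26 as deposited, none called. Gsta3 differed by 0.65 ± 0.21 (adjusted p = 0.416), and its 2 KO arrays are those that stood far apart. Without KO day 0 replicate 1 it was 1.04 and called (adjusted p = 0.0157) as deposited, and its other probe set differed by 0.17 ± 0.17 (adjusted p = 0.849). The remaining 8 genes had deposited differences from -0.16 for Gstt2 to 0.35 for Gstm6.

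The interaction asks whether the change from day 0 to day 2 differed between the genotypes, and it uses the same arrays as the comparisons above. As deposited the rise was smaller in KO livers for Gstm1, by -1.48 ± 0.18 (log2, KO change minus WT change, adjusted p = 0.0068), and for Gstm3, by -1.28 ± 0.25 (adjusted p = 0.0231). These are 2 of 10 genes, and 2.06% of all genes had such a smaller or more negative change. On the quantile scale the values were -0.45 (adjusted p = 0.0714) for Gstm1 and -0.54 (adjusted p = 0.112) for Gstm3, and none of the 10 was called by limma (2.04% of all genes in either direction), with 3 at an unadjusted p under 0.05. The share of all genes at that unadjusted threshold is not given here. The deposited Gstm3 call is lost without KO day 2 replicate 2 (adjusted p = 0.0633), WT day 2 replicate 3 (0.0562), WT day 0 replicate 1 (0.0796) or WT day 0 replicate 2 (0.0952). As deposited the median interaction of the 152 genes over 14 was -0.55, and after quantile normalization it was 0.11. Of the 15 probe sets 3 were called lower as deposited, beside 2.57% of all probe sets in either direction. Gstm1 1448330_at gave -1.53 ± 0.18 as deposited (adjusted p = 0.00755), whereas Gstm1 1425626_at gave 0.09 ± 0.19 (adjusted p = 0.829). Gstm1 1425627_x_at gave 0.28 ± 0.30 (adjusted p = 0.632) and Gstm3 1427473_at -0.88 ± 0.27 (adjusted p = 0.105), both uncalled. Gsta3 had an uncalled interaction of -0.95 ± 0.27 (adjusted p = 0.0813) as deposited and an uncalled -0.57 on the quantile scale. Leaving out 1 array at a time on either scale, its values ran from -1.33 to -0.07. The other Gsta3 probe set, 1423437_at, gave -0.10 as deposited and 0.19 on the quantile scale, both uncalled. The other 7 genes lay between -0.67 for Gsta4 and 0.14 for Gstt3 and were not called.

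**Figure D5:**
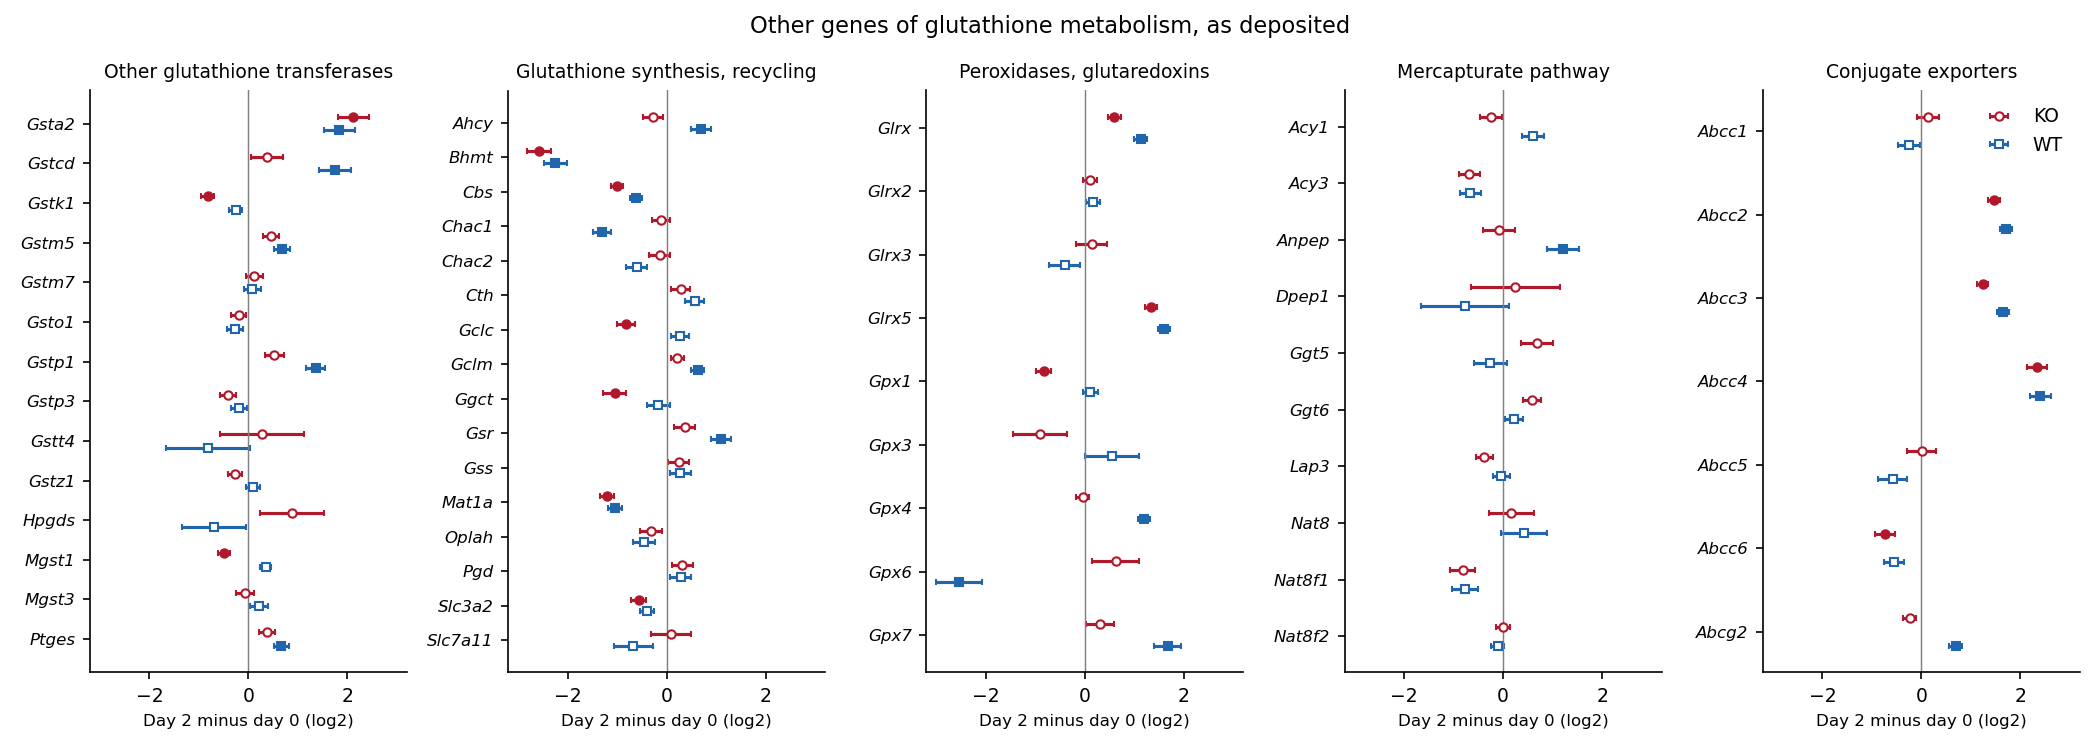
Day 2 minus day 0 log2 difference (horizontal axis, as deposited, with SE) of other genes that make, use, recycle or export glutathione. Red circles are KO livers and blue squares WT livers, and filled symbols were called at an adjusted p under 0.05. Abcc2, Abcc3 and Abcc4 rose and Bhmt and Mat1a fell in both genotypes.

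Other genes of the glutathione system, grouped by function, changed in both directions. Of 14 other glutathione transferase and related genes measured, 1 rose and 2 fell in KO livers and 5 rose and none fell in WT livers. Beside this count and those of the lists below, 4.2% of all genes rose and 4.49% fell in KO livers. In WT livers 7.26% of all genes rose and 5.38% fell. Gsta2, an alpha class gene, rose by 2.12 in KO and 1.84 in WT livers (log2 differences, both called). A probe set shared by Gsta1, Gsta2 and Gm3776 was not part of the fit. As deposited it read 25178 to 29945 on KO day 2 arrays and 1125 to 1501.5 on KO day 0 arrays. In WT livers it read 43016 to 49054 at day 2 and 1097 to 1813 at day 0. Gstp1, the pi class gene, rose by 1.36 in WT livers and had an uncalled difference of 0.52 in KO livers, which was called at 0.91 on the quantile scale. Gstk1, the kappa class gene of mitochondria and peroxisomes, fell in KO livers by 0.82 on the log2 scale, also on the quantile scale (-0.71). Mgst1, a microsomal transferase, fell as deposited in KO livers (-0.49) but had an uncalled 0.21 on the quantile scale. Its KO minus WT difference at day 2 reverses between the scales, at -0.51 as deposited and 0.29 on the quantile scale, both called. Gstm7, the mu class gene next to Gstm6, had uncalled differences of 0.12 in KO and 0.08 in WT livers as deposited, and of 0.19 and -0.03 on the quantile scale.

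The next list holds genes of glutathione synthesis, recycling and breakdown and of the methionine cycle that supplies cysteine. Of 16 measured, 6 fell and none rose in KO livers (4.49% of all genes fell and 4.2% rose), and 4 fell and 3 rose in WT livers (5.38% of all genes fell and 7.26% rose). The falls include a breakdown gene in each genotype, Ggct in KO livers (-1.05) and Chac1 in WT livers (-1.31). Bhmt, which remethylates homocysteine, fell in both, with log2 differences of -2.58 in KO and -2.25 in WT livers. Mat1a, which makes S-adenosylmethionine, fell likewise (-1.20 in KO and -1.04 in WT livers), as did Cbs, the entry to transsulfuration (-1.005 in KO and -0.62 in WT livers). Gclc, the catalytic subunit of glutamate-cysteine ligase, fell in KO livers (-0.83, adjusted p = 0.0158) and had an uncalled 0.26 in WT livers. Its difference between the genotypes' changes was -1.09 (adjusted p = 0.0462) as deposited, and -0.87 on the quantile scale, not called. Chac1, which degrades glutathione, had a called difference between the changes in the other direction, 1.19 as deposited (adjusted p = 0.0315), and an uncalled 1.03 on the quantile scale (adjusted p = 0.0604). At day 2 Chac1 was higher in KO than in WT livers on both scales, by 1.29 as deposited (adjusted p = 0.00187) and by 1.15 after quantile normalization (adjusted p = 0.00568). Gclm, the modifier subunit (0.63), and Gsr, glutathione reductase (1.10), rose in WT livers.

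Among 9 glutathione peroxidases and glutaredoxins, 2 rose and 1 fell in KO livers and 4 rose and 1 fell in WT livers. Glrx5, a mitochondrial glutaredoxin of iron-sulphur cluster assembly, rose by 1.33 in KO and 1.59 in WT livers. Gpx4, which reduces lipid hydroperoxides, rose by 1.19 in WT livers and had an uncalled -0.05 in KO livers. Its difference between the changes was called on both scales (-1.23 as deposited and -0.86 after quantile normalization). Gpx6 went the other way, with -2.54 in WT livers, an uncalled 0.62 in KO livers and a quantile difference between the changes of 3.04 (adjusted p = 0.0479). Gpx7 rose by 1.68 in WT livers and had an uncalled 0.31 in KO livers. Of 10 genes of the mercapturate pathway, none was called in KO livers by limma, with 4 at an unadjusted p under 0.05, and 1 rose on the quantile scale. As deposited in WT livers 1 of these rose, Anpep, an aminopeptidase (1.22). Among 7 exporters of conjugates, 3 rose and 1 fell in KO livers and 4 rose in WT livers. Abcc4, an exporter of the basolateral membrane, rose by 2.34 in KO and 2.41 in WT livers. Abcc2, the canalicular exporter of glutathione conjugates, rose by 1.47 in KO and 1.72 in WT livers, and Abcc3 by 1.24 in KO and 1.65 in WT livers. Abcg2 rose by 0.69 in WT livers and had an uncalled -0.23 in KO livers. Its difference between the changes was called on both scales, at -0.93 as deposited (adjusted p = 0.0286) and -0.88 after quantile normalization (adjusted p = 0.0413).

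Of 15 regulators and known target genes, 3 rose and 2 fell in KO livers and 4 rose and 2 fell in WT livers. Cyp2b10, the classical CAR target, rose by 4.38 in KO and 4.94 in WT livers. Nr1i3, which encodes CAR itself, fell in both genotypes (-0.63 in KO and -0.70 in WT livers). Srxn1, an NRF2 target, rose by 0.61 in KO and 1.13 in WT livers, and Nqo1, another, rose by 1.20 in KO livers and had an uncalled 0.53 in WT livers. The genes whose quantile-normalized pattern over the 12 arrays was most like a glutathione transferase were, for Gsta4, the flavin monooxygenase gene Fmo5 (Pearson r = 0.996) and the microsomal epoxide hydrolase gene Ephx1 (0.988). For Gstt1 they were Slc23a2 (0.988), Abcc2 (0.985) and Cyp2b10 (0.984). The most alike gene was Entpd5 for Gstm2 (0.990), Adssl1 for Gstm3 (0.992) and the quinone reductase gene Nqo2 for Gstm4 (0.960). It was Cdc34 for Gstm1 (0.983), Renbp for Gstm6 (0.959), Higd1a for Gsta3 (0.963), Srpk1 for Gstt2 (0.923) and 4931406C07Rik for Gstt3 (0.988). These are descriptions over 12 arrays of 6 groups that share the step between day 0 and the later days, and they carry no test.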

How the data were processed

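RNA from 12 whole-liver samples was hybridised to a 1-colour Affymetrix mouse array. The deposited values are MAS5 signal intensities, which the authors scaled to a common target per the submitters' processing notes and per the labels. On every array the mean between the 2nd and 98th percentile was close to 500. The platform annotation gives 34945 of 45101 probe sets to 1 gene, 932 to several and 9160 to none, and 64 are controls. Symbols can be old.

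A probe set was kept when its signal exceeded the array's own median on at least 2 of 12 arrays, and the brightest kept probe set (highest mean log2 signal) represented its gene. The 6 group means were fitted with limma 3.58.1 in R 4.3.3 to log2(signal + 16), with trended and robust eBayes and 6 residual degrees of freedom, and 5 contrasts were tested with Benjamini-Hochberg adjustment over 14102 genes. The pseudocount lowers the fold of dim genes. A second fit used all 23038 kept probe sets. The 12 arrays limit the precision. On simulated data of the same 14102 genes, 31 of 100 genes changed 2-fold and 77 of 100 changed 4-fold were recovered for KO day 2 against day 0. For the difference of the changes, 16 of 100 changed 2-fold and 53 of 100 changed 4-fold were recovered.

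Genes named outside the 10 are up to 4 per list and comparison with the largest called change, and the 3 most alike genes of each member by Pearson correlation. Gstm7 and Gclm fall outside this rule and were named after their values were seen. The members and all gene lists were chosen with earlier results of these data known. Same-numbered KO and WT arrays did not deviate together (correlations of -0.01 at day 0 and 0.00 to 0.03 at day 2), so arrays were not paired. Alternatives covered normalization (quantile, median centring, cyclic loess), filters, pseudocounts, the choice of probe set, eBayes settings, array weights, thresholds and leaving out each array. Promoter windows are those of RefSeq on GRCm38.p6, searched on both strands.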

Additional observations from a re-analysis of the deposited data

Results flagged for a closer look

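For the representing probe sets of Gstm1 and Gstm3, the deposited change between day 0 and day 2 differed between the genotypes by limma's test. The KO change minus the WT change was -1.48 for Gstm1 (adjusted p = 0.0068) and -1.28 for Gstm3 (adjusted p = 0.0231) on the deposited log2 scale. After quantile normalization it was -0.45 for Gstm1 (adjusted p = 0.0714) and -0.54 for Gstm3 (adjusted p = 0.112), past the threshold for neither. Of the other probe sets as deposited, Gstm1 1448330_at was called (-1.53). Gstm1 1425626_at (0.09), Gstm1 1425627_x_at (0.28) and Gstm3 1427473_at (-0.88) were not called. The highest array signal was 48217 to 67457 on KO day 2 arrays and 103216 to 116918 on WT day 2 arrays, and the part of this range in the values was not tested.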

How the results depend on the processing

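The day 2 minus day 0 differences of the 10 genes kept their sign in both genotypes under every alternative tried. Over 1300 gene and setting combinations, 1123 kept direction and side of the threshold, 24 gained a call, 40 lost one and 113 changed sign, all 113 in the genotype comparisons (44 at day 2, 21 at day 0 and 48 for the difference of the changes). With 2 arrays a group at day 0 and 3 at day 2, smaller differences than those called may have been missed.

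Quantile normalization gave, for KO minus WT at day 2, 0.14 for Gstm2, 0.086 for Gstm4, 0.11 for Gstm6, 0.014 for Gsta3 and 0.17 for Gstt1, at day 0 -0.052 for Gstm3, and for the difference of the changes 0.26 for Gstm2, 0.20 for Gstm4 and 0.12 for Gstt1, all against the deposited sign. Cyclic loess gave for KO minus WT at day 2 0.12 for Gstm2, 0.042 for Gstm4, 0.058 for Gstm6, 0.089 for Gsta3 and 0.16 for Gstt1, at day 0 -0.17 for Gstm3, and for the difference of the changes 0.33 for Gstm2, 0.17 for Gstm4 and 0.15 for Gstt1. Median centring gave -0.12 for Gstt3 at day 2 and -0.045 for its difference of the changes. Averaging the probe sets of a gene gave -0.037 for Gstm3 at day 0. None of these values was called, and the cause was not tested.

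Members called between the genotypes at day 2, all lower in KO livers, numbered 1 after quantile normalization, where 3.86% of all genes were lower. They numbered 2 as deposited, where 5.23% were lower. After centring they numbered 5, and the share of all genes under centring is not given here. For the difference of the changes the members called numbered 0 after quantile normalization, 1 with loess, 0 with averaged probe sets, 1 with plain eBayes and 1 at an adjusted p under 0.01, against 2. The calls over all genes follow below, except those with loess and averaged probe sets, which are not given here. Of the 15 probe sets, 2 were called at day 2 and 0 for the difference of the changes after quantile normalization, an alternative chosen after seeing the data, against 4 and 3. Gstm1 in KO livers between day 2 and day 0 was called under quantile (0.76), loess (0.57) and averaged probe sets (0.87), and Gsta3 under averaged probe sets (0.59).

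Over all 14102 genes, calls in KO livers between day 2 and day 0 numbered 1225 as deposited, 801 with only the arrays compared, 568 at an adjusted p under 0.01 and 1840 under 0.1. In WT livers they numbered 1782, and 861 under 0.01. Between the genotypes at day 2 they numbered 1300, with 748 by plain eBayes, 272 under 0.01 and 2448 under 0.1. At day 0 they numbered 24, with 9 without the filter on low signals, 0 with plain eBayes, 0 with only the arrays compared, 4 with array weights, 0 under 0.01 and 50 under 0.1. For the difference of the changes they numbered 444, with 287 after quantile normalization, 275 without the filter, 76 by plain eBayes, 34 under 0.01 and 1055 under 0.1.

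The replicate numbers as a block, although they pair no samples, gave 8 calls over all genes at day 0 and 286 for the difference of the changes, and changed no count of members as deposited. With quantile normalization and the block together these were 10 and 120, and 807 between the genotypes at day 2. The members called were then 1 at day 2 and 0 for the difference of the changes, and the reversed values of the 10 genes were those of quantile normalization alone.

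Leaving out 1 array at a time, calls over all genes ranged from 777 to 1269 in KO livers and from 880 to 1458 in WT livers between the days, from 342 to 979 between the genotypes at day 2, from 7 to 208 at day 0 and from 27 to 698 for the difference of the changes. Members called ranged from 1 to 2 between the genotypes at day 2, from 0 to 1 at day 0 and from 0 to 3 for the difference of the changes. All leave-out ranges in this paragraph, of calls and of values, pool fits on the deposited and on the quantile scale. A change of sign can therefore come from the scale as well as from the array left out. At day 2, 6 of the 12 fits changed sign for each of Gstm2, Gstm6 and Gstt1, as quantile normalization of all arrays did. Among the genes with changes of sign, KO minus WT at day 2 ranged from -0.22 to 0.22 for Gstm2 and -0.21 to 0.18 for Gstm4. It ranged from -0.21 to 0.23 for Gstm6, -0.38 to 0.068 for Gsta3, -0.28 to 0.20 for Gstt1 and -0.019 to 0.39 for Gstt3. At day 0 it ranged from -0.37 to 0.14 for Gstm2, -0.18 to 0.22 for Gstm3, -0.34 to 0.12 for Gstm4, -0.087 to 0.20 for Gstt1, -0.45 to 0.11 for Gstt2 and -0.28 to 0.048 for Gstt3. The difference of the changes ranged from -0.31 to 0.51 for Gstm2, -0.22 to 0.43 for Gstm4, -0.44 to 0.26 for Gstt1 and -0.48 to 0.23 for Gstt2.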
